A study of Mus musculus with 12 samples.

Results

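The transcripts of RNA polymerases I, II and III and of the Mediator complex were followed in cardiac fibroblasts as 58 protein-coding genes, of 35523 genes in the table. They were taken by symbol, as Polr1, Polr2 or Polr3 followed by a letter and Med followed by a number. The 58 genes are 5 subunits of RNA polymerase I, 13 of RNA polymerase II, 10 of RNA polymerase III and 30 of Mediator. All 58 had reads in each of the 12 libraries and passed the filter on low counts. The antisense gene Med9os and the pseudogene Polr2k-ps were left out as not coding. Under the gene names used, 3 further subunits of RNA polymerase I (Twistnb, Cd3eap and Znrd1) and 1 of RNA polymerase III (Crcp) carry other symbols and were counted apart.

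RNA-seq was done on primary fibroblasts isolated by enzymatic digestion from hearts of wild-type C57BL/6J mice, adult females and males. The 4 groups of 3 biological replicates were H1.0 siRNA with TGF-β, H1.0 siRNA with vehicle, scramble siRNA with TGF-β, and scramble siRNA with vehicle. TGF-β, the cytokine that turns fibroblasts into contractile, matrix-producing cells, was given at 10 ng/ml after a period in low serum. The siRNA targets histone H1.0 (gene H1f0), a linker histone that binds the DNA between nucleosomes. All groups, controls included, were transfected and had been grown in culture with serum and basic fibroblast growth factor, so none represents fibroblasts in the heart. The study describes its replicates as coming from different animals or cell isolations, without saying which holds for these libraries or whether equal replicate numbers share an isolation.

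RNA polymerase I makes the precursor of the large ribosomal RNAs, RNA polymerase II makes messenger RNAs, and RNA polymerase III makes transfer RNAs and other small RNAs. Some subunits belong to 1 enzyme and some are shared between them, and each enzyme has its own initiation factors. Mediator is a large assembly with head, middle and tail modules and a detachable kinase module, which passes signals from DNA-bound transcription factors to RNA polymerase II at promoters. Most of these genes are active in all growing cells. What is compared here is the amount of their messenger RNA and not the activity of the enzymes.

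H1f0 had 843, 876 and 510 normalised counts with H1.0 siRNA against 2832, 2922 and 2807 with scramble in TGF-β-treated cells, and 980, 1075 and 601 against 2515, 3033 and 2648 in vehicle-treated cells. A normalised count is the count divided by the library total, scaled by the trimmed mean of M-values (TMM), times the mean library total of 26.9 M counts. The log2 fold change of H1f0 was -1.94 (SE 0.22, adjusted p = 5.8e-05) with TGF-β and -1.63 (SE 0.22, adjusted p = 2e-04) with vehicle, by edgeR's quasi-likelihood test with Benjamini-Hochberg adjustment over 18028 genes. Libraries held 36.2 to 36.3 M counts in H1.0 siRNA cells with TGF-β, 21.4 to 35.5 M in those with vehicle, 19.9 to 24.3 M in scramble cells with TGF-β and 21.2 to 24.4 M in those with vehicle. The 8 fibroblast markers summed to between 10900 and 12400 TPM, a level corrected for transcript length and library size, in every library, a sum made up mostly of Col1a1, Col1a2 and Vim. Singly, 1 of the 8 was higher (Dcn) and 3 lower (Lum, Tcf21 and Thy1) with H1.0 siRNA under TGF-β, and 1 higher (Dcn) and 1 lower (Thy1) under vehicle. With TGF-β 2 were higher (Col1a1 and Col1a2) and 3 lower (Pdgfra, Dcn and Tcf21) in H1.0 siRNA cells, and 1 higher (Col1a1) and 2 lower (Pdgfra and Dcn) in scramble cells. All 15 genes of a proliferation list were lower with H1.0 siRNA in both treatments, and their summed level was 212 to 255 TPM with H1.0 siRNA against 803 to 940 TPM with scramble in TGF-β-treated cells, and 209 to 269 TPM against 481 to 600 TPM in vehicle-treated cells. The 6 cardiomyocyte markers summed to 13.1 to 21.4 TPM in H1.0 siRNA cells and 130 to 192 TPM in scramble cells. Tnnt2 made up most of this sum, at 9.66 to 18.3 TPM and 128 to 188 TPM, and each other marker was at most 4.36 TPM. By test 1 of 6 was called lower in both treatments, and Actn2 and Myl2 were listed at 0 in some library. Endothelial markers (5 genes) summed to 20.3 to 27.5 TPM with H1.0 siRNA and 32.4 to 54.7 TPM with scramble, with Tek alone called, lower in both treatments. Macrophage markers (6 genes) summed to 125 to 180 TPM with TGF-β and 207 to 282 TPM with vehicle, with 3 of 6 lower with TGF-β in both siRNA states. Mural markers (4 genes) summed to 7.38 to 18.6 TPM with TGF-β against 1.87 to 6.49 TPM with vehicle in H1.0 siRNA cells, and 22.4 to 47.7 TPM against 6.14 to 16.7 TPM in scramble cells, with 1 of 4 higher with TGF-β in both. The part of these differences in the results below was not tested, and in bulk RNA fewer cells of a type cannot be told apart from less RNA per cell.

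H1.0 siRNA raised some transcripts of RNA polymerases II and III and of Mediator and lowered others. At an adjusted p under 0.01, H1.0 siRNA cells had 16 of the 58 transcripts higher and 6 lower than scramble cells under TGF-β, where 24.3% of all genes tested were called (13.0% higher and 11.3% lower). Under vehicle 15 were higher and 7 lower, where 24.7% of all genes were called (13.4% higher and 11.2% lower). An offset for transcript length gave 10 higher under TGF-β, and without vehicle H1.0 siRNA 3 there were 4 lower under vehicle. Under TGF-β, 5 of 10 RNA polymerase III transcripts were higher and 1 lower, and 9 of 30 Mediator transcripts were higher and 3 lower. Under vehicle these counts were 4 and 2 for RNA polymerase III and 8 and 4 for Mediator. RNA polymerase II had 2 higher and 2 lower of 13 under TGF-β, and 3 higher and 1 lower under vehicle. None of the 5 RNA polymerase I transcripts passed the threshold for H1.0 siRNA in either treatment by DESeq2 or by edgeR without a block for replicate number. With that block in edgeR 1 of the 5, Polr1a, was higher under TGF-β, where 3179 of 18028 genes were higher. Without it 1 under TGF-β and 2 under vehicle had an unadjusted p under 0.05, which 43.8% and 44.4% of all genes reached. The median log2 fold change of the 58 was 0.10 under TGF-β and 0.16 under vehicle, against 0.04 and 0 over all genes tested.

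The calls for H1.0 siRNA were shared between treatments for 17 transcripts, 12 of them higher and 5 lower in both. A further 5 were called under TGF-β only and 5 under vehicle only, and none of these differences between treatments passed its own test. In that test of the difference, the interaction of siRNA and TGF-β, edgeR called none of the 58, where 0.0444% of all genes were called (0.0333% higher and 0.0111% lower). DESeq2 also called none of the 58, where it called 110 of 18028 genes higher and 129 lower. By edgeR 6 of the 58 (10.3%) had an unadjusted p under 0.05, against 11.9% of all genes, and the lowest adjusted p was 0.086 (Med20). The median interaction was -0.15 on the log2 scale for the 13 RNA polymerase II transcripts, -0.02 for RNA polymerase III, 0.08 for RNA polymerase I and 0.03 for Mediator, against 0.02 over all genes.

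TGF-β raised more of these transcripts than it lowered. In H1.0 siRNA cells 13 of 58 were higher and 2 lower with TGF-β than with vehicle, where 15.7% of all genes were called (9.14% higher and 6.60% lower). In scramble cells 14 were higher and 2 lower, where 18.4% of all genes were called (10.5% higher and 7.94% lower). Over all genes the split was 1648 higher and 1190 lower in H1.0 siRNA cells (1388 and 1506 with upper-quartile scaling), and 1893 higher and 1431 lower in scramble cells (1516 and 1740). The member counts of TGF-β depended on single libraries: without vehicle H1.0 siRNA 1 there were 5 higher in H1.0 siRNA cells, and without TGF-β scramble 3 there were 7 higher in scramble cells. An offset for transcript length gave 4 higher and 0 lower in H1.0 siRNA cells. By complex, 2 of 5 RNA polymerase I transcripts were higher in both siRNA states. For RNA polymerase III, 4 of 10 were higher and 1 lower in both. RNA polymerase II had 1 of 13 higher in H1.0 siRNA cells and 4 in scramble cells. Mediator had 6 of 30 higher and 1 lower in H1.0 siRNA cells, and 4 higher and 1 lower in scramble cells. The response to TGF-β had a median, on the log2 scale, of 0.52 in H1.0 siRNA cells and 0.37 in scramble cells for RNA polymerase I, and of 0.27 and 0.18 for RNA polymerase III. The same medians were 0.04 and 0.21 for RNA polymerase II and 0.05 and 0.12 for Mediator, against -0.01 and -0.01 over all genes. These 4 comparisons share groups, so their counts are not independent of each other. The libraries of the compared groups did not overlap for 37 of the 58 transcripts with H1.0 siRNA under TGF-β (46.5% of all genes) and 37 under vehicle (48.0%). With TGF-β they did not overlap for 29 in H1.0 siRNA cells (42.6%) and 35 in scramble cells (45.7%).

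**Figure D1:**
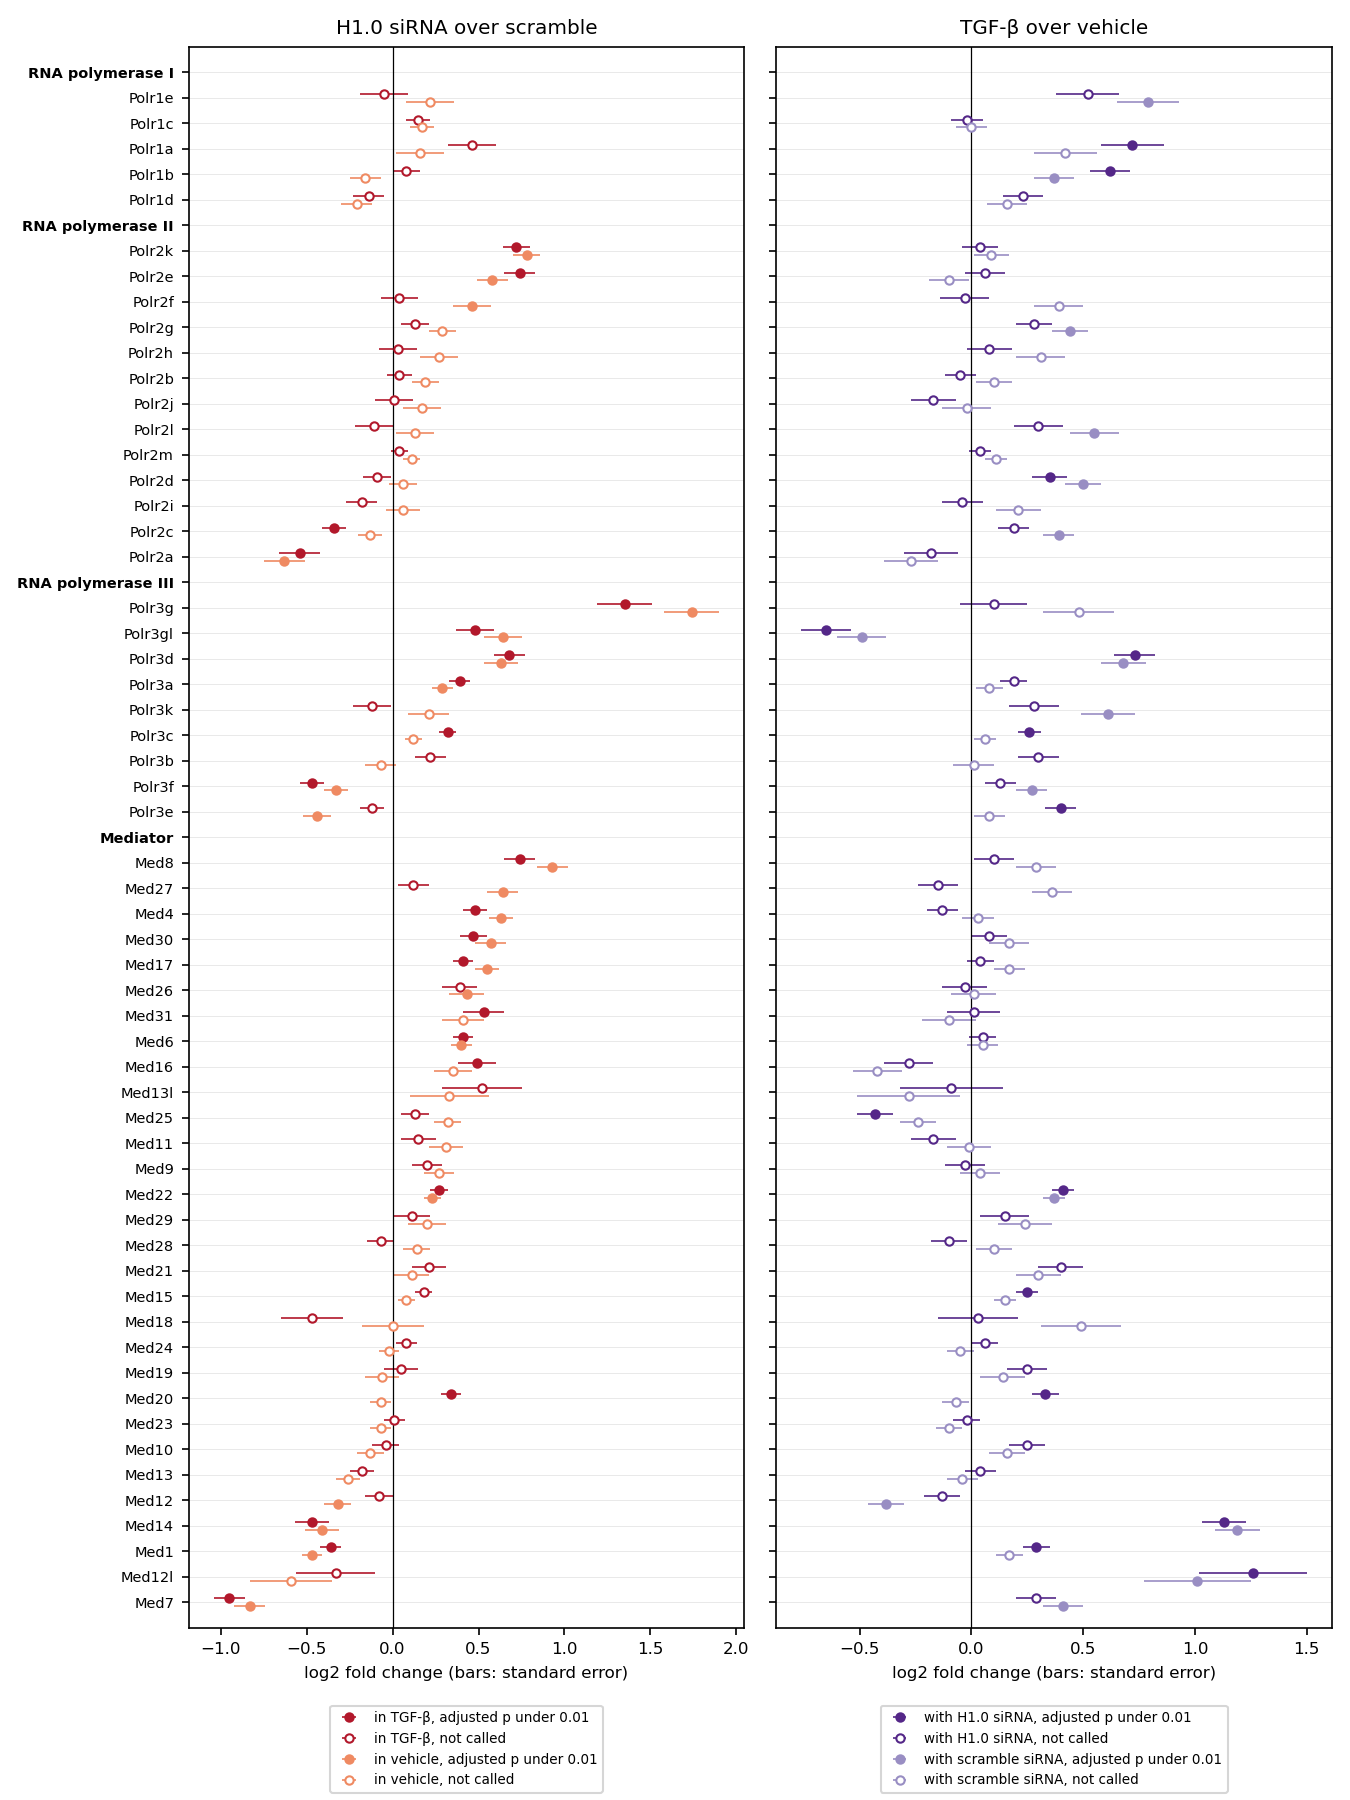
Log2 fold change of 57 of the 58 transcripts (points, with SE bars) in the 4 comparisons, grouped by complex, filled where the adjusted p was under 0.01. The widest increase with H1.0 siRNA was that of Polr3g (1.35 under TGF-β and 1.74 under vehicle) and the widest decrease that of Med7 (-0.95 and -0.83).

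In RNA polymerase II the transcript of the largest subunit was lower with H1.0 siRNA, and those of the shared subunits Polr2e and Polr2k were higher. Polr2a encodes the catalytic subunit whose C-terminal repeats are phosphorylated through the transcription cycle. It had 4571, 5199 and 4363 normalised counts with H1.0 siRNA against 7002, 7318 and 6185 with scramble in TGF-β-treated cells, and 5603, 5827 and 4590 against 9124, 8712 and 6962 in vehicle-treated cells. The libraries of the 2 siRNA states did not overlap in either treatment, and replicate 3 was the lowest in every group. The log2 fold change was -0.54 (SE 0.12, adjusted p = 0.0053) under TGF-β and -0.63 (SE 0.12, adjusted p = 0.002) under vehicle. The call under TGF-β was lost without TGF-β scramble replicate 1 or 2 or without TGF-β H1.0 siRNA replicate 1 or 3, at adjusted p of 0.019 to 0.024. For TGF-β Polr2a had a log2 fold change of -0.18 (adjusted p = 0.31) in H1.0 siRNA cells and -0.27 (adjusted p = 0.11) in scramble cells. With a block for replicate number in the fit, Polr2a was called lower with TGF-β in scramble cells but not in H1.0 siRNA cells.

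Polr2a, Polr2b, Polr2c and Polr2d are also shown by the study from these same samples, so their values here are not independent evidence. Polr2b, which encodes the other subunit that lines the catalytic cleft, had 2140, 2114 and 1915 normalised counts with H1.0 siRNA against 2093, 2068 and 1818 with scramble in TGF-β-treated cells, and 2133, 2119 and 2113 against 1856, 1995 and 1721 in vehicle-treated cells. It passed the threshold in none of the comparisons by edgeR without a block for replicate number. Its log2 fold change for H1.0 siRNA was 0.04 (SE 0.07) under TGF-β and 0.19 (SE 0.08, adjusted p = 0.068) under vehicle. Polr2c, whose product starts the assembly of the enzyme, had 753, 756 and 813 with H1.0 siRNA against 960, 940 and 1032 with scramble under TGF-β, and 636, 687 and 711 against 736, 725 and 773 under vehicle. Its groups were apart in both treatments, with a log2 fold change of -0.34 (SE 0.07, adjusted p = 0.0022) under TGF-β and -0.13 (SE 0.07, adjusted p = 0.15) under vehicle. Without TGF-β scramble replicate 3, or without TGF-β H1.0 siRNA replicate 1 or 2, the adjusted p was 0.01 to 0.011. For TGF-β Polr2c had 0.19 (adjusted p = 0.053) in H1.0 siRNA cells and was higher by 0.39 (SE 0.07, adjusted p = 0.0013) in scramble cells.

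Polr2d and Polr2g encode the pair that forms the stalk of RNA polymerase II, and TGF-β raised both in scramble cells. Polr2d had 466, 468 and 407 normalised counts with TGF-β against 341, 330 and 382 with vehicle in H1.0 siRNA cells, and 492, 469 and 469 against 342, 330 and 339 in scramble cells. Polr2g had 746, 772 and 870 with TGF-β against 636, 642 and 694 with vehicle in H1.0 siRNA cells, and 755, 666 and 767 against 537, 530 and 550 in scramble cells. TGF-β libraries were above vehicle libraries throughout for both genes. Polr2d had a log2 fold change of 0.35 (SE 0.08, adjusted p = 0.0095) in H1.0 siRNA cells and 0.50 (SE 0.08, adjusted p = 0.0012) in scramble cells. Polr2g had 0.28 (SE 0.08, adjusted p = 0.022) in H1.0 siRNA cells and 0.44 (SE 0.08, adjusted p = 0.002) in scramble cells. In H1.0 siRNA cells the Polr2d call was lost in 10 of the 12 runs without 1 library, all but those without vehicle H1.0 siRNA 3 or TGF-β H1.0 siRNA 3 (adjusted p 0.011 to 0.035), and under 5 other settings (0.01 to 0.04). The Polr2g call in scramble cells was lost at an adjusted p of 0.01 without vehicle scramble 1 or 2 or TGF-β scramble 3.

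RNA polymerase II shares 5 subunits with both other enzymes. With H1.0 siRNA 2 of the 5 were higher under TGF-β and 3 under vehicle (median log2 fold change 0.04 and 0.46), and of the 7 subunits of RNA polymerase II alone 2 were lower under TGF-β and 1 under vehicle (median -0.09 and 0.06). The difference between these 2 sets was not tested. Polr2e, which contacts the incoming DNA, had 874, 903 and 1003 normalised counts with H1.0 siRNA against 604, 492 and 572 with scramble under TGF-β, and 875, 823 and 976 against 575, 623 and 595 under vehicle. Polr2k, a small zinc-binding subunit, had 495, 488 and 477 with H1.0 siRNA against 287, 305 and 293 with scramble under TGF-β, and 491, 452 and 480 against 257, 304 and 268 under vehicle. Every H1.0 siRNA library was above every scramble library for both genes. With H1.0 siRNA Polr2e was higher by 0.74 (SE 0.09, adjusted p = 0.00012) under TGF-β and 0.58 (SE 0.09, adjusted p = 6e-04) under vehicle on the log2 scale. For Polr2k the values were 0.72 (SE 0.08, adjusted p = 4.5e-05) and 0.78 (SE 0.08, adjusted p = 3.1e-05).

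Polr2f, another shared subunit, had 646, 571 and 709 normalised counts with H1.0 siRNA against 702, 593 and 577 with scramble under TGF-β, and 650, 648 and 670 against 539, 474 and 419 under vehicle. Its groups overlapped under TGF-β (log2 fold change 0.04, SE 0.11, adjusted p = 0.82) and were apart under vehicle (0.46, SE 0.11, adjusted p = 0.0077). The vehicle call was lost without any 1 of 7 libraries, vehicle scramble 2 and 3, TGF-β scramble 2, all 3 vehicle H1.0 siRNA libraries and TGF-β H1.0 siRNA 1 (adjusted p 0.011 to 0.03), and with protein-coding transcripts alone (0.012). Polr2l, a shared subunit of the assembly platform, had 1845, 1994 and 1795 with TGF-β against 1553, 1302 and 1705 with vehicle in H1.0 siRNA cells, and 2125, 1873 and 2093 against 1336, 1260 and 1562 in scramble cells. No groups overlapped, and the log2 fold change was 0.30 (SE 0.11, adjusted p = 0.054) in H1.0 siRNA cells and 0.55 (SE 0.11, adjusted p = 0.0029) in scramble cells. Without vehicle scramble 1 or 2, or without TGF-β scramble 1 or 3, the adjusted p in scramble cells was 0.012 to 0.015. The remaining Polr2h, Polr2i, Polr2j and Polr2m (an associated protein rather than a core subunit) passed in none of the comparisons by edgeR without that block. Their log2 fold changes lay between -0.18 and 0.31. The block is one for replicate number.

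**Figure D2:**
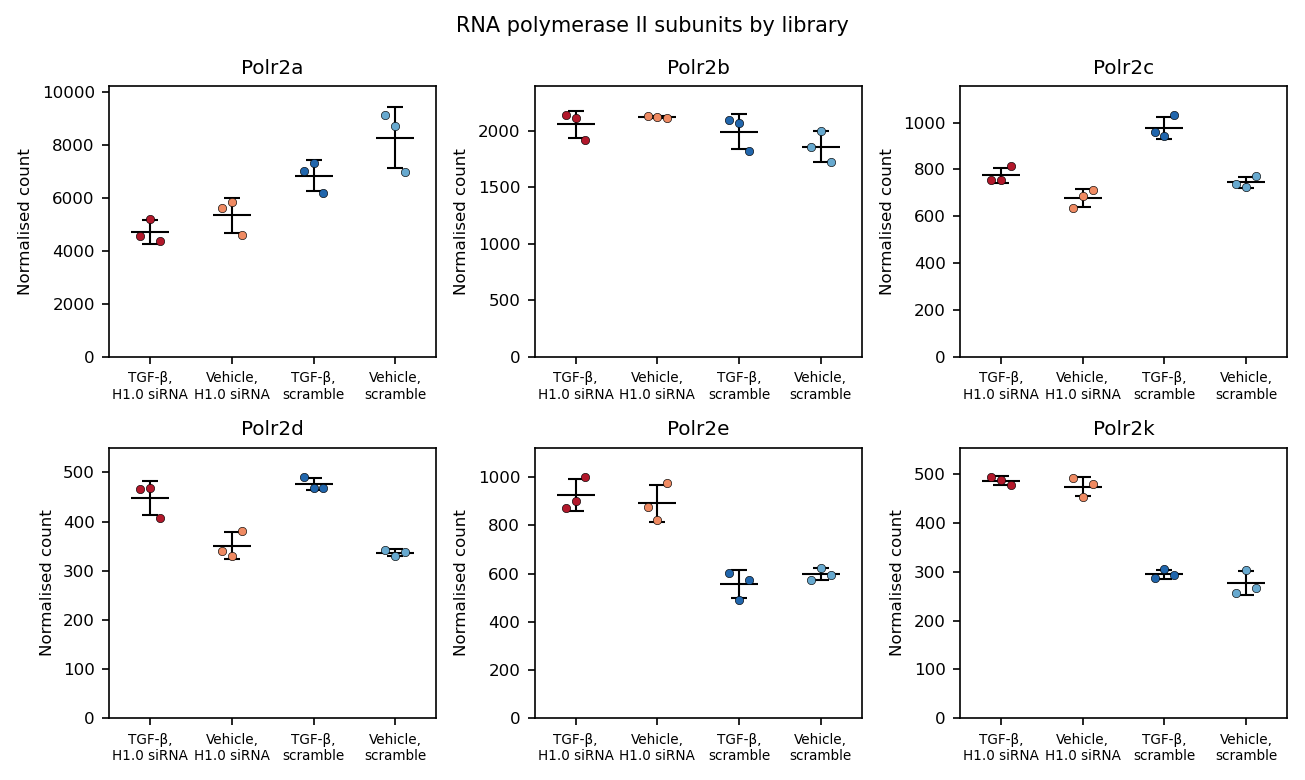
Normalised counts of Polr2a, Polr2b, Polr2c, Polr2d, Polr2e and Polr2k in every library (points), with the mean (bar) and SD of each group of 3. For Polr2a the H1.0 siRNA libraries lie at 4363 to 5827 and the scramble libraries at 6185 to 9124, and for Polr2k the H1.0 siRNA libraries lie at 452 to 495 and the scramble libraries at 257 to 305.

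Per transcript length, Polr2m, Polr2a and Polr2j had the highest levels of RNA polymerase II in scramble cells with vehicle, at 137 ± 10.5, 91.4 ± 13.8 and 81.4 ± 8.49 TPM (SD, n = 3), and the difference between Polr2a and Polr2j was smaller than the SD of Polr2a. Polr2a was at rank 9 of 13 with 48.9 ± 5.19 TPM in H1.0 siRNA cells with TGF-β and was at rank 2 in scramble cells with vehicle. Summed over the 13 genes the level was 825 ± 13 TPM in H1.0 siRNA cells with TGF-β, 846 ± 11 TPM in those with vehicle, 853 ± 14 TPM in scramble cells with TGF-β and 781 ± 36 TPM in those with vehicle. The sum lay between 740 and 868 TPM in all 12 libraries.

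The stretch upstream of Polr2a is shown because its transcript had the widest decrease among subunits of RNA polymerase II. In the RefSeq table (GRCm38.p6) it is chr11:69758634-69758883, minus strand, the 250 bases before the annotated start, with 3 GC boxes and a TATA box in capitals.

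Polr2a: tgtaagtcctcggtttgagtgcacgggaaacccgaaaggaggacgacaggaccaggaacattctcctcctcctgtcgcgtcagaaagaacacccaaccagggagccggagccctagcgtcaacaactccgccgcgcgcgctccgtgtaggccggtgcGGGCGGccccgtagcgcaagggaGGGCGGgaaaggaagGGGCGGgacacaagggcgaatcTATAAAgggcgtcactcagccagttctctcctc

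The GC boxes (GGGCGG) start 93, 70 and 55 bases before the start and the TATA box (TATAAA) starts 33 bases before it. Searched on both strands, a GC box was in 62.5% of the windows of the 48 members that matched the table and in 32.9% of all 27025 windows of this length. TATAAA was in 10.4% of the members' windows and 13% of all. These matches describe the letters only.

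The widest change with H1.0 siRNA was that of Polr3g, and its alternative Polr3gl was also higher. Each can take the same place beside Polr3c and Polr3f in the unit that RNA polymerase III needs to start transcription. Polr3g is known from undifferentiated cells and Polr3gl is the form of most differentiated tissues. Polr3g had 367, 363 and 378 normalised counts with H1.0 siRNA against 159, 141 and 135 with scramble under TGF-β, and 274, 326 and 434 against 102.4, 94.3 and 114 under vehicle. Every H1.0 siRNA library was above every scramble library, and the vehicle H1.0 siRNA libraries were the most scattered. The log2 fold change was 1.35 (SE 0.16, adjusted p = 6e-05) under TGF-β and 1.74 (SE 0.16, adjusted p = 1.5e-05) under vehicle.

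Polr3gl had 269, 299 and 298 normalised counts with H1.0 siRNA against 223, 222 and 175 with scramble under TGF-β, and 429, 472 and 455 against 315, 276 and 280.0 under vehicle. It was higher with H1.0 siRNA, by 0.48 (SE 0.11, adjusted p = 0.0054) under TGF-β and 0.64 (SE 0.11, adjusted p = 0.00083) under vehicle on the log2 scale. It was lower with TGF-β, with -0.65 (SE 0.11, adjusted p = 0.0013) in H1.0 siRNA cells and -0.49 (SE 0.11, adjusted p = 0.0066) in scramble cells. Groups did not overlap in any of these 4 comparisons. Polr3g did not pass for TGF-β, with 0.48 (SE 0.16, adjusted p = 0.043) in scramble cells and 0.10 (SE 0.15, adjusted p = 0.69) in H1.0 siRNA cells. The Polr3gl call for H1.0 siRNA under TGF-β was lost without TGF-β scramble 3 or TGF-β H1.0 siRNA 2 or 3 (adjusted p 0.018 to 0.02). Its call for TGF-β in scramble cells was lost without any 1 of 7 libraries, all 3 of vehicle scramble, TGF-β scramble 2 and 3 and vehicle H1.0 siRNA 1 and 2 (0.01 to 0.032). A length offset or protein-coding transcripts alone took 3 of its 4 calls to between 0.011 and 0.014.

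Measured per length, Polr3g made up 27.6 ± 0.75% of the summed TPM of the pair in H1.0 siRNA cells with TGF-β, 19.8 ± 2.2% in H1.0 siRNA cells with vehicle, 19.9 ± 0.46% in scramble cells with TGF-β and 11.1 ± 0.36% in scramble cells with vehicle (SD, n = 3 each). The share was thus higher with H1.0 siRNA in each treatment and higher with TGF-β in each siRNA state, a description with no test. The summed level of the pair was 31.9 ± 1.9 TPM in H1.0 siRNA cells with TGF-β, 43.1 ± 3.3 TPM in those with vehicle, 19.8 ± 2.6 TPM in scramble cells with TGF-β and 26.4 ± 1.8 TPM in those with vehicle. Polr3g itself averaged 8.79 ± 0.35 TPM in H1.0 siRNA cells with TGF-β and 2.94 ± 0.121 TPM in scramble cells with vehicle, the lowest of the 10 subunits in both.

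**Figure D3:**
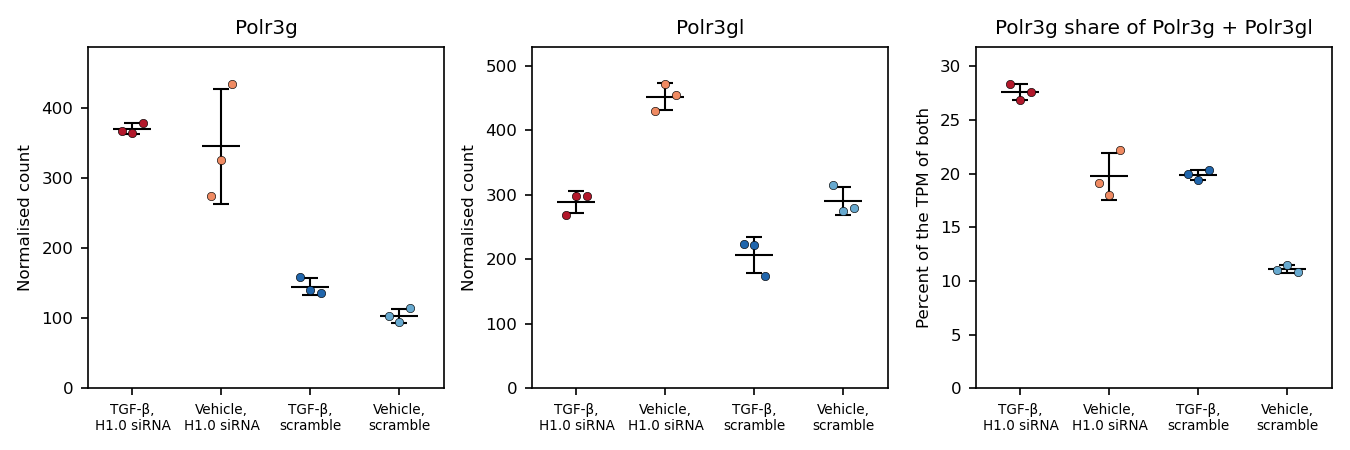
Normalised counts of Polr3g and Polr3gl in every library (points) with the mean (bar) and SD of each group of 3, and the share of Polr3g in the summed TPM of the pair. Polr3g lies at 274 to 434 in H1.0 siRNA libraries and at 94.3 to 159 in scramble libraries, and its mean share is between 11.1% and 27.6%.

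The upstream stretches of this pair are shown side by side because these 2 genes can fill the same place in the enzyme. Both are the 250 bases before the annotated start in RefSeq (GRCm38.p6), chr13:81711014-81711263 for Polr3g and chr3:96594182-96594431 for Polr3gl, minus strand in both, with motif matches in capitals.

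Polr3g: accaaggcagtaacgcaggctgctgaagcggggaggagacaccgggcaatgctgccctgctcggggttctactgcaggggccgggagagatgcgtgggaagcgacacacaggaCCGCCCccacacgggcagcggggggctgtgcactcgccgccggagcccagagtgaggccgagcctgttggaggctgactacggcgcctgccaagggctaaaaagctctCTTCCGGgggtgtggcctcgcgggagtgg

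Polr3gl: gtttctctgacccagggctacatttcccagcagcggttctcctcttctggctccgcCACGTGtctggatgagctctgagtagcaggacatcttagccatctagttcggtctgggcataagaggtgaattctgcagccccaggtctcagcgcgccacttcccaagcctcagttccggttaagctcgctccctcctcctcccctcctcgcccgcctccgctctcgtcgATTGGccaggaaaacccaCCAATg

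The window of Polr3g holds a GC box starting 137 bases before the start and an ETS motif (CCGGAAG) starting 29 bases before it, both on the reverse strand. That of Polr3gl holds an E-box (CACGTG) starting 194 bases before the start and 2 CCAAT boxes (CCAAT), starting 24 bases before it on the reverse strand and 6 bases before it. An ETS motif was in 18.8% of the 48 members' windows and 7.05% of all 27025, an E-box in 6.25% and 6.05%, and a CCAAT box in 33.3% and 34.5%. As above, the 27025 windows were not limited to protein-coding or expressed genes. No methylation or binding was measured here at these stretches.

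The partners of that initiation unit moved in different directions with H1.0 siRNA. Polr3c had 793, 795 and 809 normalised counts with H1.0 siRNA against 648, 634 and 639 with scramble under TGF-β, and 678, 644 and 683 against 630, 601 and 619 under vehicle. Polr3f had 571, 560.0 and 530 with H1.0 siRNA against 756, 794 and 749 with scramble under TGF-β, and 487, 537 and 492 against 605, 649 and 651 under vehicle. The siRNA states did not overlap for either gene, with Polr3c above and Polr3f below scramble. Polr3c had a log2 fold change of 0.32 (SE 0.05, adjusted p = 0.00084) under TGF-β and 0.12 (SE 0.05, adjusted p = 0.12) under vehicle. Polr3f had -0.47 (SE 0.07, adjusted p = 0.00024) and -0.33 (SE 0.07, adjusted p = 0.0025). The vehicle call of Polr3f was lost without vehicle scramble 2 or vehicle H1.0 siRNA 1 or 3 (adjusted p 0.011 to 0.013). A length offset gave 0.043 for Polr3c under TGF-β, and 0.058 and 0.03 for Polr3f under TGF-β and vehicle. With TGF-β Polr3c was higher by 0.26 on the log2 scale in H1.0 siRNA cells (SE 0.05, adjusted p = 0.0047) and Polr3f by 0.27 in scramble cells (SE 0.07, adjusted p = 0.0098). Both of these were lost without 1 library in several cases, for Polr3c without any of the 5 compared libraries other than vehicle H1.0 siRNA 3 (0.014 to 0.021) and for Polr3f in 11 of 12 cases, all but TGF-β H1.0 siRNA 3 (0.01 to 0.045). They were lost under 4 other settings for Polr3c (0.01 to 0.094) and 6 for Polr3f (0.011 to 0.3).

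Polr3d and Polr3e encode a pair that binds to the core of RNA polymerase III and acts in starting and ending transcripts, and their values also had opposite signs with H1.0 siRNA. Polr3d had 1736, 1608 and 1898 normalised counts with H1.0 siRNA against 1097, 1065 and 1116 with scramble under TGF-β, and 1024, 952 and 1182 against 614, 705 and 727 under vehicle. It was higher in all 4 comparisons with no overlap. With H1.0 siRNA it was higher by 0.68 (SE 0.09, adjusted p = 0.00022) under TGF-β and 0.63 (SE 0.10, adjusted p = 0.00041) under vehicle, and by 0.73 (SE 0.09, adjusted p = 0.00029) and 0.68 (SE 0.10, adjusted p = 0.00047) with TGF-β in H1.0 siRNA and scramble cells, on the log2 scale. At 74.4 ± 7.09 TPM in H1.0 siRNA cells with TGF-β and 37.8 ± 0.541 TPM in scramble cells with vehicle, it was the most abundant of the 10 subunits per length in both. Polr3e had 545, 626 and 642 with H1.0 siRNA against 640, 643 and 683 with scramble under TGF-β, and 454, 458 and 460.0 against 632, 644 and 587 under vehicle. Its groups overlapped under TGF-β (log2 fold change -0.12, SE 0.07, adjusted p = 0.26) and it fell by 0.44 under vehicle (SE 0.08, adjusted p = 0.00085). In H1.0 siRNA cells Polr3e was higher with TGF-β by 0.40 (SE 0.07, adjusted p = 0.0024), lost at adjusted p of 0.01 to 0.012 without vehicle H1.0 siRNA 1 or 2 or TGF-β H1.0 siRNA 3 and 0.011 with a length offset.

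Polr3a, the catalytic subunit and the counterpart of Polr2a, had 935, 1007 and 1008 normalised counts with H1.0 siRNA against 722, 763 and 760 with scramble under TGF-β, and 851, 841 and 901 against 711, 706 and 703 under vehicle. It was higher with H1.0 siRNA in every library, with a log2 fold change of 0.39 (SE 0.06, adjusted p = 0.00031) under TGF-β and 0.29 (SE 0.06, adjusted p = 0.0023) under vehicle. The vehicle call was lost without vehicle scramble 1 or 2 or vehicle H1.0 siRNA 3 (0.01 to 0.014), and with a length offset or protein-coding transcripts alone (0.026 to 0.081). Polr3k, which acts in cleaving the nascent RNA and in ending transcription, had 954, 904 and 974 with TGF-β against 756, 740 and 828 with vehicle in H1.0 siRNA cells, and 1055, 902 and 1126 against 707, 551 and 755 in scramble cells. The groups did not overlap, with a log2 fold change of 0.28 (SE 0.11, adjusted p = 0.087) in H1.0 siRNA cells and 0.61 (SE 0.12, adjusted p = 0.0023) in scramble cells, the second being 0.011 without TGF-β scramble 3. Polr3b, the other catalytic subunit, passed in no comparison by edgeR without a block for replicate number. Its log2 fold changes lay between -0.07 and 0.30, with a lowest adjusted p of 0.023. Over the 10 genes the summed level was 228 ± 8.4 TPM in H1.0 siRNA cells with TGF-β, 200 ± 5.5 TPM in those with vehicle, 196 ± 4.8 TPM in scramble cells with TGF-β and 172 ± 2.7 TPM in those with vehicle.

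In RNA polymerase I, TGF-β raised Polr1b in both siRNA states, Polr1a in H1.0 siRNA cells and Polr1e in scramble cells. Polr1a, the largest subunit, had 2044, 1977 and 2732 normalised counts with TGF-β against 1181, 1262 and 1662 with vehicle in H1.0 siRNA cells, and 1539, 1682 and 1701 against 1308, 1194 and 1182 in scramble cells. The groups did not overlap, and replicate 3 was high in both groups of H1.0 siRNA cells. The log2 fold change was 0.72 (SE 0.14, adjusted p = 0.0034) in H1.0 siRNA cells and 0.42 (SE 0.14, adjusted p = 0.044) in scramble cells. The call was lost without vehicle H1.0 siRNA 1 or 2 or TGF-β H1.0 siRNA 3 (0.011 to 0.019). Counting protein-coding transcripts alone, which held 26.8% to 41.0% of the gene's reads, gave an adjusted p of 0.098.

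Polr1b, its partner in the catalytic centre, had 511, 499 and 566 normalised counts with TGF-β against 338, 340 and 348 with vehicle in H1.0 siRNA cells, and 481, 545 and 464 against 390, 401 and 357 in scramble cells. It was higher with TGF-β with no overlap, by 0.62 (SE 0.09, adjusted p = 0.00041) and 0.37 (SE 0.09, adjusted p = 0.0068) on the log2 scale, and the call in scramble cells was lost in 10 of 12 cases without 1 library, all but TGF-β H1.0 siRNA 2 and 3 (0.01 to 0.03). A length offset gave 0.01 in H1.0 siRNA cells and 0.11 in scramble cells. Polr1e, of the pair that helps the enzyme bind its promoter factors, had 296, 262 and 332 with TGF-β against 186, 187 and 249 with vehicle in H1.0 siRNA cells, and 310.4, 287 and 327 against 157, 187 and 190.4 in scramble cells. The groups did not overlap, with a log2 fold change of 0.52 (SE 0.14, adjusted p = 0.018) in H1.0 siRNA cells and 0.79 (SE 0.14, adjusted p = 0.0019) in scramble cells, the second being 0.012 without vehicle scramble 1. Cd3eap, the partner of Polr1e in that pair, had 731, 724 and 901 with TGF-β against 329, 304 and 348 with vehicle in H1.0 siRNA cells, and 736, 804 and 889 against 350, 451 and 427 in scramble cells. Its log2 fold change was 1.26 (SE 0.12, adjusted p = 4.6e-05) in H1.0 siRNA cells and 0.99 (SE 0.12, adjusted p = 0.00021) in scramble cells, wider than that of any of the 5. Twistnb and Znrd1 had values between 0.08 and 0.31 with TGF-β and did not pass. Polr1c and Polr1d, which RNA polymerases I and III share, passed in no comparison by edgeR without a block for replicate number (log2 fold changes from -0.21 to 0.23). With that block 4 of the 5 subunits were higher with TGF-β in H1.0 siRNA cells, which takes in Polr1c or Polr1d. There 2551 of 18028 genes were higher. Per length Polr1d was the most abundant, at 128 ± 11.6 TPM in H1.0 siRNA cells with TGF-β and 127 ± 4.45 TPM in scramble cells with vehicle.

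Most genes of a list of nucleolar ribosome synthesis were higher with TGF-β. Of 7 initiation and termination factors of RNA polymerase I, none was called with TGF-β in either siRNA state. Their median log2 fold change was 0.23 in H1.0 siRNA cells and -0.02 in scramble cells. Of 15 genes of nucleolar ribosome synthesis, 12 were higher with TGF-β in H1.0 siRNA cells (median log2 fold change 0.59), where 9.14% of all genes were higher, and 10 in scramble cells (0.53), where 10.5% were. Nop56, a core protein of box C/D small nucleolar particles, was higher by 0.87 (SE 0.11, adjusted p = 0.00027) and 0.96 (SE 0.11, adjusted p = 0.00016), and Nop58, of the same particles, by 0.86 (SE 0.11, adjusted p = 0.00022) and 0.78 (SE 0.11, adjusted p = 0.00038). With H1.0 siRNA 2 of the 15 were higher and 1 lower under TGF-β, and 3 higher and 1 lower under vehicle.

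In Mediator, several head subunits were higher with H1.0 siRNA and the scaffold subunit Med14 was lower. Of the 7 head subunits, which contact RNA polymerase II, 5 were higher with H1.0 siRNA under TGF-β and 4 under vehicle (median log2 fold change 0.34 and 0.31). Of all genes tested 13.0% and 13.4% were higher. Among these head calls only those of Med6 and Med8 held under every setting tried and without any single library. Of the 9 subunits of the middle module 2 were higher and 2 lower in each treatment. Med14, the scaffold that joins head, middle and tail, had 5999, 4993 and 5673 normalised counts with H1.0 siRNA against 7548, 7292 and 8193 with scramble under TGF-β, and 2801, 2459 and 2343 against 3213, 3102 and 3800 under vehicle. Each siRNA state was apart from the other, and each TGF-β group was well above its vehicle group. With H1.0 siRNA Med14 had -0.47 (SE 0.10, adjusted p = 0.0037) under TGF-β and -0.41 (SE 0.10, adjusted p = 0.0078) under vehicle, on the log2 scale. With TGF-β it had 1.13 (SE 0.10, adjusted p = 3.3e-05) and 1.19 (SE 0.10, adjusted p = 4.4e-05) in H1.0 siRNA and scramble cells. The calls for H1.0 siRNA were lost without TGF-β scramble 1 or 3 or TGF-β H1.0 siRNA 2 under TGF-β (0.011 to 0.017), and under vehicle without any 1 of 6 libraries, vehicle scramble 1 and 3, TGF-β scramble 1 and 2 and vehicle H1.0 siRNA 2 and 3 (0.011 to 0.032). A length offset gave 0.01 and 0.018 for the same calls.

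Among the head subunits, Med8 and Med17 rose in both treatments. Med8, which anchors the flexible part of the head, had 1241, 1101 and 1273 normalised counts with H1.0 siRNA against 719, 725 and 725 with scramble under TGF-β, and 1091, 1005 and 1280.0 against 605, 572 and 601 under vehicle. Med17, the core of the head, had 924, 911 and 861 with H1.0 siRNA against 673, 670.1 and 684 with scramble under TGF-β, and 846, 934 and 850 against 607, 627 and 566 under vehicle. Both were higher in every H1.0 siRNA library. Med8 had a log2 fold change of 0.74 (SE 0.09, adjusted p = 7.8e-05) under TGF-β and 0.93 (SE 0.09, adjusted p = 2e-05) under vehicle. Med17 had 0.41 (SE 0.06, adjusted p = 0.00049) and 0.55 (SE 0.07, adjusted p = 7.7e-05). An offset for transcript length took Med17 to an adjusted p of 0.11 under TGF-β and 0.13 under vehicle. Med6, which links head and middle, had 574, 559 and 545 with H1.0 siRNA against 412, 443 and 409 with scramble under TGF-β, and 545, 519 and 554 against 416, 407 and 399 under vehicle, higher by 0.41 (SE 0.06, adjusted p = 0.00048) and 0.40 (SE 0.06, adjusted p = 0.00056).

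Med22 was the one head subunit higher in all 4 comparisons. It had 1096, 1100 and 1154 normalised counts with H1.0 siRNA against 914, 909 and 953 with scramble under TGF-β, and 844, 837 and 835 against 697, 711 and 742 under vehicle. No groups overlapped, with log2 fold changes of 0.27 (SE 0.05, adjusted p = 0.0022) and 0.23 (SE 0.05, adjusted p = 0.0066) for H1.0 siRNA under TGF-β and vehicle, and 0.41 (SE 0.05, adjusted p = 0.00029) and 0.37 (SE 0.05, adjusted p = 0.00059) for TGF-β in H1.0 siRNA and scramble cells. The vehicle call was lost without any 1 of 9 libraries, all but vehicle scramble 3, TGF-β scramble 3 and TGF-β H1.0 siRNA 3 (0.01 to 0.036), and that under TGF-β without TGF-β scramble 1 or 2 (0.01 to 0.011). Under 7 other settings, DESeq2 and other scalings among them, the vehicle call was also lost (0.012 to 0.12), as was the call under TGF-β with a length offset (0.026). Med20 had 827, 850.0 and 826 with H1.0 siRNA against 653, 647 and 681 with scramble under TGF-β, and 642, 682 and 664 against 684, 652 and 748 under vehicle. It pairs with Med18 in the movable jaw of the head. The groups were apart under TGF-β (log2 fold change 0.34, SE 0.06, adjusted p = 0.0017) and overlapped under vehicle (-0.07, SE 0.06, adjusted p = 0.46). The length offset gave 0.15 and protein-coding transcripts alone, which held 39.2% to 53.1% of its reads, gave 0.066 for that call. With TGF-β Med20 was higher in H1.0 siRNA cells by 0.33 (SE 0.06, adjusted p = 0.0029), lost without vehicle H1.0 siRNA 1 or TGF-β H1.0 siRNA 2 (0.011 to 0.016) and at 0.089 with the length offset.

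In the middle module, which holds the hinge of the complex, H1.0 siRNA lowered Med7 and Med1 and raised Med4 in both treatments, and raised Med31 under TGF-β and Med26 under vehicle. Med7, of the hinge, had 417, 447 and 377 normalised counts with H1.0 siRNA against 781, 789 and 829 with scramble under TGF-β, and 339, 336 and 337 against 599, 535 and 669 under vehicle. Med1, which contacts nuclear receptors, had 2398, 2535 and 2333 with H1.0 siRNA against 3087, 3262 and 2960.0 with scramble under TGF-β, and 1970.0, 2061 and 1925 against 2730.0, 2870.0 and 2670.0 under vehicle. All H1.0 siRNA libraries of Med7 and Med1 were below the scramble libraries of their treatment. Med7 had a log2 fold change of -0.95 (SE 0.09, adjusted p = 1.5e-05) under TGF-β and -0.83 (SE 0.09, adjusted p = 4.5e-05) under vehicle. Med1 had -0.36 (SE 0.06, adjusted p = 0.00071) and -0.47 (SE 0.06, adjusted p = 0.00011). With TGF-β Med7 was higher in scramble cells by 0.41 (SE 0.09, adjusted p = 0.0052) and Med1 in H1.0 siRNA cells by 0.29 (SE 0.06, adjusted p = 0.0044). The Med7 call was lost without vehicle scramble 1 or 2 or any TGF-β scramble library (0.013 to 0.023), and that of Med1 without vehicle H1.0 siRNA 1 or 3 or TGF-β H1.0 siRNA 1 or 2 (0.013 to 0.019), and with upper-quartile scaling or a length offset (0.013 to 0.016). Exons of Med7 share 21.2% of their bases with 2310031A07Rik on the opposite strand. The widest such overlaps of other called members were those of Med31 (26.3%, 4930563E22Rik), Med20 (21.4%, Kpna2-ps), Polr2c (18.1%, Dok4) and Med12l (15.3%, Igsf10). Further members had overlaps of 12.7% (Med26, Gm17435) or less. Among members not called, the widest were those of Med10 (92.8%, Gm26819), Polr2i (26.8%, Tbcb) and Polr2j (15.9%, Lrwd1). Whether reads were counted by strand is not given in the sources used here, so reads of these genes may include some of the partner's. On the same strand, exons of the called members Med12 and Med20 share 9.72% of their bases with Gm21986 and 7% with Gm20517. Counting by strand would not separate these.

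Med4, which bridges the middle module to the rest, had 545, 536 and 548 normalised counts with H1.0 siRNA against 368, 393 and 410 with scramble under TGF-β, and 599, 588 and 591 against 368, 380 and 402 under vehicle. It was higher in every H1.0 siRNA library, by 0.48 (SE 0.07, adjusted p = 0.00021) under TGF-β and 0.63 (SE 0.07, adjusted p = 3.5e-05) under vehicle. Med31, which binds Med7 in the hinge region, had 252, 220 and 298 with H1.0 siRNA against 186, 167 and 180 with scramble under TGF-β, and 265, 246 and 251 against 209, 180 and 184 under vehicle. The log2 fold change was 0.53 (SE 0.12, adjusted p = 0.0056) under TGF-β and 0.41 (SE 0.12, adjusted p = 0.021) under vehicle, with the first lost without any TGF-β scramble library or TGF-β H1.0 siRNA 1 or 3 (0.014 to 0.025). Med26, which can bind elongation factors, had 269, 295 and 270 with H1.0 siRNA against 219, 190 and 228 with scramble under TGF-β, and 271, 295 and 286 against 227, 213 and 194 under vehicle. The log2 fold change was 0.39 (SE 0.10, adjusted p = 0.012) under TGF-β and 0.43 (SE 0.10, adjusted p = 0.0071) under vehicle, the vehicle call being lost without any 1 of 8 libraries, all 6 of vehicle-treated cells, TGF-β scramble 1 and TGF-β H1.0 siRNA 1 (0.01 to 0.027). Thinning all libraries to the lowest total or a length offset also ended the calls of Med31 (0.017 to 0.02) and Med26 (0.011 to 0.021, without a filter on low counts too).

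**Figure D4:**
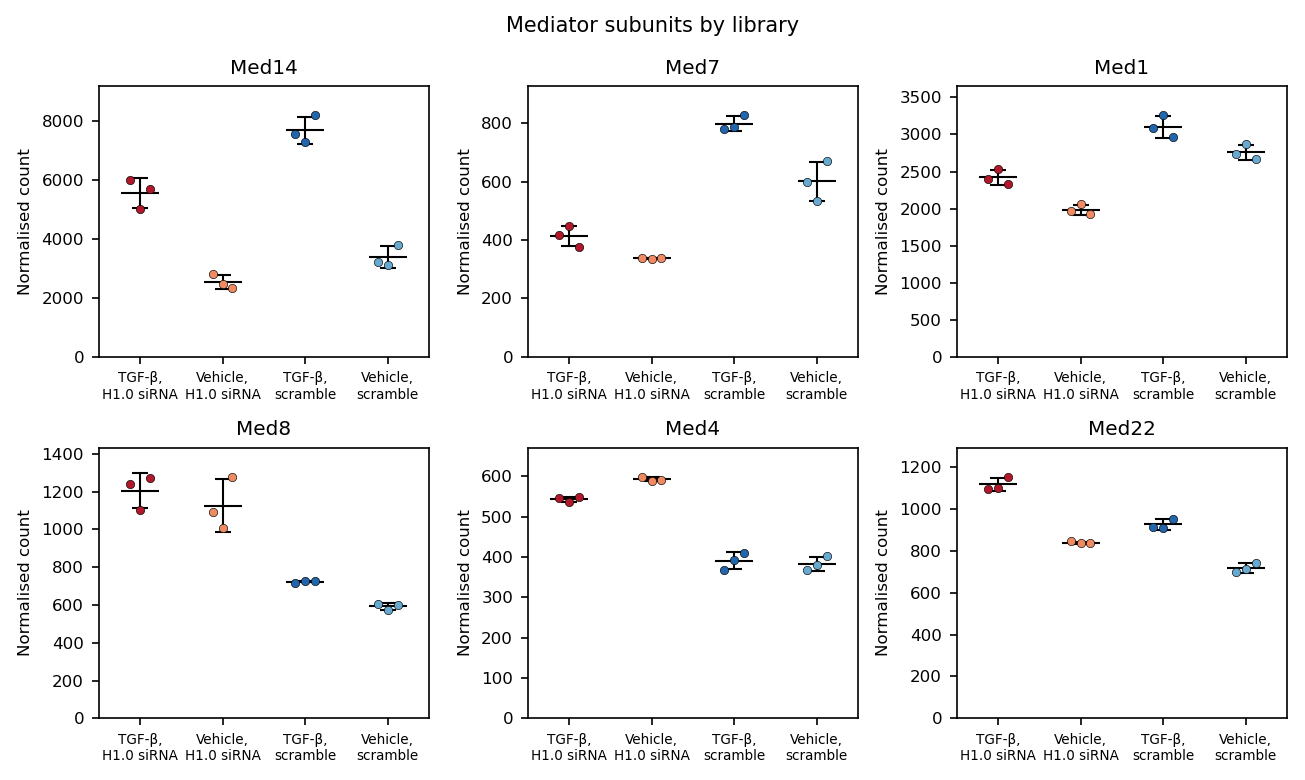
Normalised counts of Med14, Med7, Med1, Med8, Med4 and Med22 in every library (points), with the mean (bar) and SD of each group of 3. For Med7 the H1.0 siRNA libraries lie at 336 to 447 and the scramble libraries at 535 to 829, and for Med8 the H1.0 siRNA libraries lie at 1005 to 1280.0 and the scramble libraries at 572 to 725.

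Between head and tail, Med30 was higher with H1.0 siRNA in both treatments and Med27 under vehicle. Med27 had 382, 408 and 418 normalised counts with H1.0 siRNA against 401, 328 and 379 with scramble under TGF-β, and 477, 430 and 437 against 281, 283 and 297 under vehicle. The groups overlapped under TGF-β (log2 fold change 0.12, SE 0.09, adjusted p = 0.33) and were apart under vehicle (0.64, SE 0.09, adjusted p = 0.00023), and the interaction was -0.52 (SE 0.13, adjusted p = 0.12). Med30 had 490.4, 447 and 440.4 with H1.0 siRNA against 347, 313 and 333 with scramble under TGF-β, and 435, 404 and 467 against 306, 279 and 295 under vehicle. It was higher by 0.47 (SE 0.08, adjusted p = 0.0012) and 0.57 (SE 0.09, adjusted p = 0.00036) with no overlap, and by thinned counts the call under TGF-β was lost (0.012).

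The tail, which binds activators, had 1 of 5 subunits called for H1.0 siRNA under TGF-β. Med16 had 795, 772 and 684 normalised counts with H1.0 siRNA against 548, 570 and 488 with scramble under TGF-β, and 968, 920 and 850 against 826, 711 and 615 under vehicle. Its groups were apart, with a log2 fold change of 0.49 (SE 0.11, adjusted p = 0.0048) under TGF-β and 0.35 (SE 0.11, adjusted p = 0.028) under vehicle, the first lost without TGF-β scramble 1 or 3 or TGF-β H1.0 siRNA 1 or 2 (0.014 to 0.022) and with a length offset (0.11). Med15, contacted by SMAD proteins of this cytokine family in frog embryos, had 1485, 1535 and 1497 with TGF-β against 1199, 1271 and 1320 with vehicle in H1.0 siRNA cells, and 1331, 1354 and 1307 against 1211, 1200.0 and 1188 in scramble cells. It was higher by 0.25 (SE 0.05, adjusted p = 0.0045) in H1.0 siRNA cells and had 0.15 (SE 0.05, adjusted p = 0.051) in scramble cells. Med25, a target of viral and cellular activators, had 1110, 1260 and 1112 with TGF-β against 1644, 1533 and 1517 with vehicle in H1.0 siRNA cells, and 1098, 1009 and 1074 against 1398, 1175 and 1194 in scramble cells. It fell by 0.43 on the log2 scale in H1.0 siRNA cells (SE 0.08, adjusted p = 0.0027) and had -0.24 (SE 0.08, adjusted p = 0.042) in scramble cells. The Med15 call was lost without any compared library but vehicle H1.0 siRNA 3 (0.012 to 0.024) and under 3 other settings (0.012 to 0.021). The Med25 call was lost without vehicle H1.0 siRNA 1 or TGF-β H1.0 siRNA 1 or 3 (0.012 to 0.013) and with a length offset (0.02).

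In the kinase module, Med12 and its paralog Med12l had log2 fold changes of opposite sign with TGF-β. Med12, which activates the kinase of the module and in human cells has also been described as binding a TGF-β receptor, had 1607, 1648 and 1570.0 normalised counts with TGF-β against 1756, 1850.0 and 1689 with vehicle in H1.0 siRNA cells, and 1757, 1675 and 1657 against 2516, 2107 and 1990.0 in scramble cells. Med12l had 68.3, 74.8 and 87.8 with TGF-β against 28.1, 26.0 and 40.7 with vehicle in H1.0 siRNA cells, and 90.5, 114 and 85.1 against 61.0, 39.7 and 43.0 in scramble cells. TGF-β and vehicle groups overlapped for neither gene. Med12 had a log2 fold change of -0.13 (SE 0.08, adjusted p = 0.25) in H1.0 siRNA cells and -0.38 (SE 0.08, adjusted p = 0.0049) in scramble cells. Med12l had 1.26 (SE 0.24, adjusted p = 0.0026) and 1.01 (SE 0.24, adjusted p = 0.0076). Per length Med12l was 3.61 ± 2.0% of the pair in H1.0 siRNA cells with TGF-β, 1.11 ± 0.33% in those with vehicle, 4.09 ± 1.3% in scramble cells with TGF-β and 1.29 ± 0.1% in those with vehicle (SD, n = 3). Med12 was also lower with H1.0 siRNA under vehicle by 0.32 (SE 0.08, adjusted p = 0.009), a call lost in 11 of 12 cases without 1 library, all but vehicle scramble 3 (0.011 to 0.031), and with no filter or a length offset (0.012 to 0.039). The Med12 call with TGF-β in scramble cells was lost without any compared library but vehicle scramble 3 (0.011 to 0.022). The Med12l calls were lost in scramble cells without any 1 of 8 libraries, all 3 of TGF-β scramble, vehicle scramble 2 and 3, vehicle H1.0 siRNA 1 and TGF-β H1.0 siRNA 1 and 2 (0.011 to 0.035), and in H1.0 siRNA cells without vehicle H1.0 siRNA 1 or 2 or TGF-β H1.0 siRNA 3 (0.011 to 0.014). A length offset gave 0.015 in H1.0 siRNA cells, and with it or thinned counts the p in scramble cells was 0.011 to 0.028.

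The enzyme of that module, which the name rule does not reach, was higher with H1.0 siRNA. Cdk8, the kinase, had 2191, 1930.0 and 2203 normalised counts with H1.0 siRNA against 1208, 1168 and 1341 with scramble under TGF-β, and 1660.0, 1501 and 2003 against 1085, 1154 and 1271 under vehicle. Its log2 fold change was 0.77 (SE 0.11, adjusted p = 0.00024) under TGF-β and 0.56 (SE 0.11, adjusted p = 0.0019) under vehicle, and that of its cyclin Ccnc was 0.49 (SE 0.07, adjusted p = 0.00016) and 0.57 (SE 0.07, adjusted p = 7.2e-05). The paralog kinase Cdk19 was -0.09 (SE 0.10, adjusted p = 0.57) under TGF-β and lower by 0.60 (SE 0.10, adjusted p = 0.00084) under vehicle. Of the other 12 Mediator members none passed in any of the comparisons by edgeR without a block for replicate number. Their log2 fold changes lay between -0.47 (Med18) and 0.52 (Med13l), with a lowest adjusted p of 0.011 (Med21). The summed level of the 30 was 962 ± 31 TPM in H1.0 siRNA cells with TGF-β, 953 ± 39 TPM in those with vehicle, 952 ± 19 TPM in scramble cells with TGF-β and 886 ± 42 TPM in those with vehicle.

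Genes that assemble or assist the polymerases were counted from lists, to be read against the 24.3% of all genes called with H1.0 siRNA under TGF-β (13.0% higher and 11.3% lower) and the 24.7% under vehicle (13.4% and 11.2%). With H1.0 siRNA 4 of 9 polymerase assembly factors were higher under TGF-β (median log2 fold change 0.34), and 5 were higher and 1 lower under vehicle (0.38). Rpap3, which bridges a chaperone to unassembled polymerase subunits, was higher by 0.77 (SE 0.07, adjusted p = 1.5e-05) and 0.64 (SE 0.07, adjusted p = 5.7e-05), Pih1d1, of the same co-chaperone complex, by 0.69 and 0.58, and Uri1 fell by 0.39 under vehicle. Of 16 RNA polymerase III factors, 6 were higher and 2 lower in each treatment (median 0.13 and 0.17), and Gtf3a, which binds the gene of the smallest ribosomal RNA, had -0.61 (SE 0.10, adjusted p = 0.00048) under TGF-β and -0.68 (SE 0.10, adjusted p = 0.00027) under vehicle. Maf1, the repressor of RNA polymerase III, was lower with TGF-β, with -0.54 (SE 0.08, adjusted p = 0.00074) in H1.0 siRNA cells and -0.56 (SE 0.08, adjusted p = 0.00062) in scramble cells. Under TGF-β it had 975, 954 and 909 normalised counts with H1.0 siRNA against 774, 718 and 647 with scramble. Under vehicle these were 1460, 1376 and 1291 against 1135, 1025 and 986, so H1.0 siRNA libraries were above scramble libraries in both treatments.

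Against the same shares of all genes (24.3% and 24.7% called), 6 of 19 pausing and elongation factors were higher and 4 lower with H1.0 siRNA under TGF-β, and 4 higher and 3 lower under vehicle (median -0.01 and 0.11). Nelfb, a subunit of the factor that holds RNA polymerase II near promoters, was higher by 1.19 (SE 0.07, adjusted p = 1.1e-06) and 1.14 (SE 0.07, adjusted p = 1.2e-06), and Rtf1, which travels with elongating RNA polymerase II, had -0.96 (SE 0.08, adjusted p = 6.8e-06) and -0.92 (SE 0.08, adjusted p = 1e-05). Of 13 TFIID subunits 2 were lower under TGF-β, and 1 was higher and 2 lower under vehicle. Of 14 kinases and phosphatases of the C-terminal repeats 3 were higher and 1 lower in each treatment, and of 18 general transcription factors 2 were higher under vehicle. Of 4 mitochondrial transcription genes 2 were higher under TGF-β and 1 under vehicle, and of 7 RNA polymerase I factors 1 was higher under vehicle.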

How the data were processed

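Bulk RNA-seq was made from 12 libraries, 3 for each of 4 groups. Per the study's methods ribosomal RNA was removed with a KAPA RNA HyperPrep kit, paired-end reads were quantified with Salmon against mm10 transcripts, and DESeq2 was used. The authors deposited estimated counts (expected counts) and TPM per transcript, as Salmon wrote them. The expected counts were summed per gene with GENCODE M21 (GRCm38) names and rounded to whole numbers before testing; whether strand was used is not given in the sources used here. Testing took the 18028 genes whose counts summed to 10 or more, and used edgeR 4.0.16 (R 4.3.3), TMM scaling, quasi-likelihood F tests, all 4 groups in 1 fit, no block, Benjamini-Hochberg adjustment over all genes and a threshold of 0.01. SE is the absolute log2 fold change over the square root of F. TPM were used to compare levels between genes and to give sums and shares by group, with no test. The script was tested on simulated data. DESeq2 1.42.0, other scalings, filters, a length offset, protein-coding transcripts alone, a replicate block and leaving out each library were alternatives. Members, lists and tests were chosen with earlier results of these data known. Full values were given for each member called in at least 1 comparison and for Polr2a to Polr2d, and from the other lists at most 2 called genes a direction. Upstream windows came from RefSeq (GRCm38.p6), where 48 of 58 members matched. Libraries held 19.9 to 36.3 M counts. The values of 1 member are not reported here, though counts and medians include it.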

Additional observations from a re-analysis of the deposited data

How the results depend on the processing

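Of 75 calls, 33 held under every setting tried and 42 without any single library; 33 were lost without some library and 34 under another setting. By comparison 10 of 22 calls held throughout for H1.0 siRNA under TGF-β and 14 of 22 under vehicle, and for TGF-β 3 of 15 in H1.0 siRNA cells and 6 of 16 in scramble cells. Without 1 library, the transcripts higher with H1.0 siRNA numbered 13 to 16 under TGF-β (16 with all) and 11 to 16 under vehicle (15), and those lower 4 to 6 (6) and 4 to 7 (7), the 4 under vehicle being without vehicle H1.0 siRNA 3. With TGF-β those higher numbered 5 to 14 in H1.0 siRNA cells (13 with all; 5 without vehicle H1.0 siRNA 1, 7 without vehicle H1.0 siRNA 2, and 8 without TGF-β H1.0 siRNA 2 or 3) and 7 to 14 in scramble cells (14 with all; 8 without vehicle scramble 1 or 2, 9 without TGF-β scramble 1 and 7 without TGF-β scramble 3), and those lower 1 to 2 (2; 1 without vehicle H1.0 siRNA 1 or TGF-β H1.0 siRNA 1 or 3) and 0 to 2 (2; 0 without vehicle scramble 1 or 2 or TGF-β scramble 2 or 3, and 1 without TGF-β scramble 1 or vehicle H1.0 siRNA 1 or 2). An offset for transcript length gave 10 higher for H1.0 siRNA under TGF-β, 4 higher and 0 lower for TGF-β in H1.0 siRNA cells, and 1 lower for TGF-β in scramble cells, where protein-coding transcripts alone also gave 1; the cause was not tested. The interaction had 0 calls under every setting. The median of RNA polymerase II for H1.0 siRNA under TGF-β (0.03) was below 0 with the size factors of DESeq2 and with the length offset.

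The replicate numbers were shared by the groups without a label that ties them to 1 isolation. The correlation of deviations between same-numbered libraries was 0.07 to 0.34 over 18028 genes in 18 pairs, with 14 over 0.1, and 0.11 to 0.6 over the 11426 genes with a mean count of at least 100, with all 18 over 0.1. In both sets all 12 libraries correlated best with their own number. With the replicate block 19 members were higher and 3 lower for TGF-β in H1.0 siRNA cells, 17 and 5 in scramble cells, and for H1.0 siRNA 18 and 6 under TGF-β and 19 and 8 under vehicle. Polr2a was then lower with TGF-β in scramble cells (adjusted p = 0.0055, against 0.11 without the block), and Polr1a higher with H1.0 siRNA under TGF-β (0.006, against 0.026). Depth was 19.9 to 36.3 M counts, and Med12l had the fewest counts of the members.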
